A study of Mus musculus with 2 samples.

Results

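Type I interferon-stimulated antiviral genes were compared between macrophages labelled beta-catenin deficient and control macrophages. The set held 50 genes named by symbol. A gene was measured through the row of the array table annotated with its symbol alone, taking the row with the highest mean of both arrays where there were several. Such a row was present for 47 of the 50, out of 19871 genes with one in the whole table, and each of the 47 had a single row. Isg15 and Oas1g were annotated only on rows shared with another gene and Ifi44 on none, so these 3 are given no value. The genes fell into RNA sensing (12 of 13 measured), effectors (25 of 26), immunoproteasome and peptide transport (4 of 4) and signal and feedback (6 of 7).

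Macrophages of both groups were grown from bone marrow of mice aged 8 weeks in medium conditioned by L929 fibroblasts. Total RNA of 1 beta-catenin deficient and 1 control sample was hybridised, each to 1 whole-transcript Affymetrix array. The sources used here do not give the allele, the Cre driver, the strain, the sex or the number of animals behind each sample. Values are RMA levels, in which the probes of a transcript are background-corrected, normalized and combined into 1 log2 number, and a difference is the array labelled deficient minus control. Each group had 1 array, so the spread between cultures is unknown, no p-value was computed, and the words higher and lower speak of these arrays alone. Ctnnb1, the gene of beta-catenin, had a level of 11.44 in the array labelled deficient and 11.29 in control and so was not lower. The sources used here do not say which exons were deleted, and probes outside them would not show the deletion, so every direction rests on the label. Nothing in such bulk RNA tells more cells of a type apart from more RNA per cell.

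Type I interferons are secreted proteins that cells release after sensing viral nucleic acid. They bind the receptor pair Ifnar1 and Ifnar2, which activates the kinases Jak1 and Tyk2. These phosphorylate Stat2, which acts with Irf9 at interferon-response elements in the promoters of target genes. The targets include sensors of foreign RNA, proteins that block viral entry, translation and replication, parts of antigen presentation, and brakes on the pathway itself. Macrophages are known to keep a low interferon tone at rest that holds many of these genes at a measurable level.

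Levels of the members were higher in the array labelled deficient in 46 of 47 cases, with Adar the exception. Across the 10658 genes of the table whose higher value reached a floor of 7.28, which is the median of all table values, 41.1% were higher by any amount. The median difference of the 47 members was 0.60, against -0.15 over all 19871 genes and -0.08 over those at or above the floor. A difference of at least 1.5-fold with the higher value at or above the floor was found for 23 of the 47 members and for 7.54% of all genes at or above it. None (0) of the members was 1.5-fold lower, where the share over all genes was 8.81%. Scaling moved these shares, to 11.5% higher and 4.51% lower after centring (30 members higher), 8.88% and 6.93% after quantile normalization (27 members) and 9.41% and 6.26% after loess (27 members), with 0 members lower in each. At 2-fold the count was 8 members higher, beside 2.96% of all genes, and 0 lower, beside 1.59%. Mx2 was the sole member below the floor in both arrays, and Slfn1 reached it only in the array labelled deficient.

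**Figure D1:**
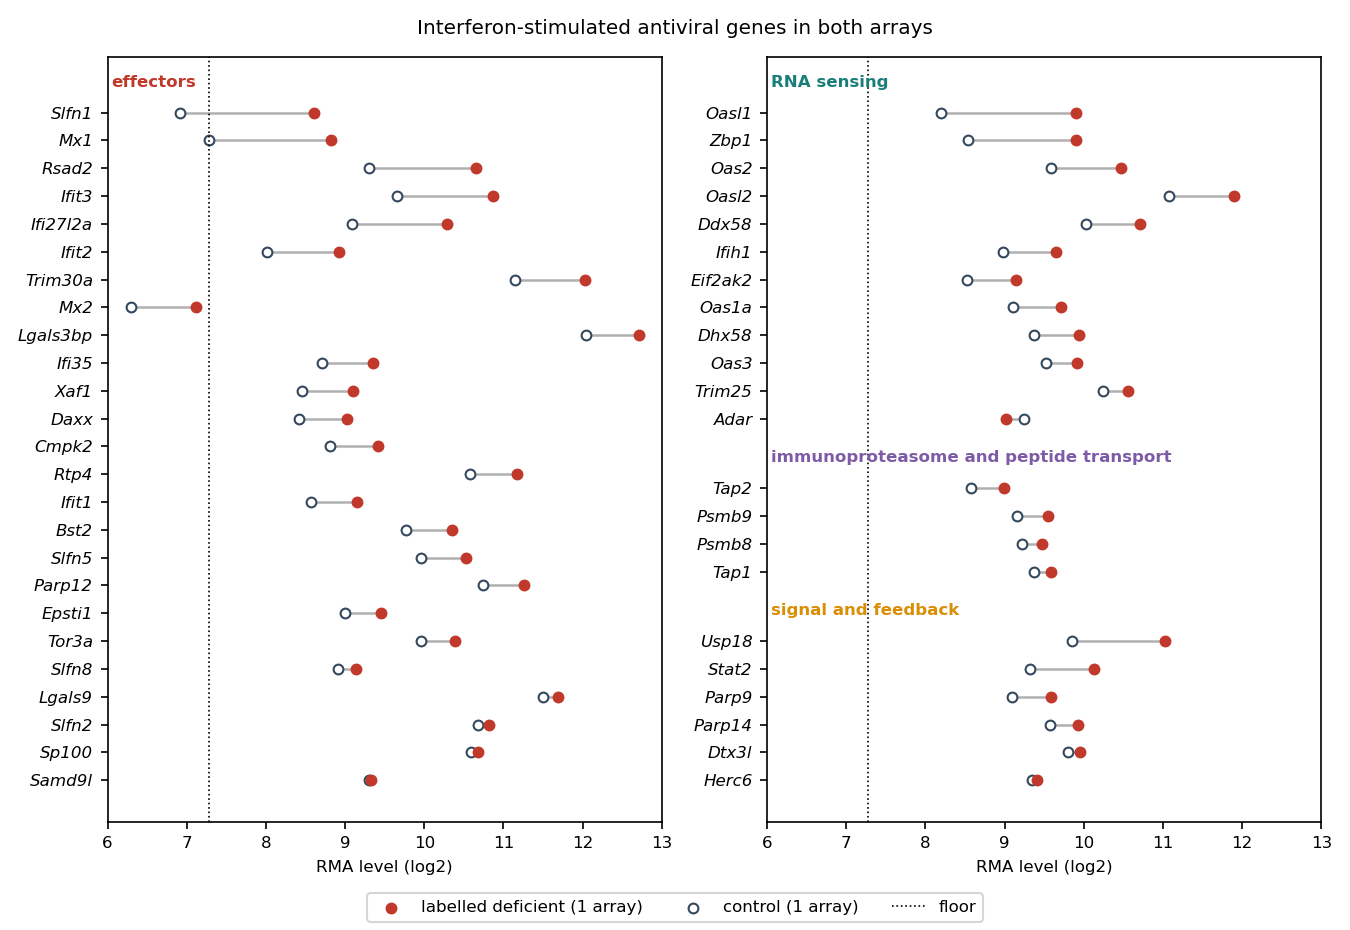
RMA level (log2) of each measured member in the array labelled deficient (filled red) and in control (open), by role and ordered by difference. In 46 of 47 genes the filled point lies to the right, and in Adar it lies to the left. The dotted line is the floor of 7.28.

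The differences were graded rather than split into changed and unchanged genes. They ran from -0.23 (Adar) to 1.70 (Oasl1). Many lay close to the 1.5-fold line, which is 0.58 on the log2 scale: 10 of the 23 genes past it had differences below 0.70, the smallest being Rtp4 (0.60), and 5 others lay between 0.50 and the line, the largest being Ifit1 (0.58, or 1.49-fold). The count of 23 therefore depends on where the line is drawn. At a line of 0.32 on the log2 scale 35 members were higher, beside 16.2% of all genes at or above the floor. None (0) was lower, where that share was 24.9%. Genes of similar level did not show the same shift. Among all genes within 0.5 of a member's mean level the median difference lay between -0.14 and 0.01, and 46 of the 47 members exceeded it. Differences had little relation to level among the members (Spearman rho -0.15 across 47 genes, which share both arrays and are not independent).

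**Figure D2:**
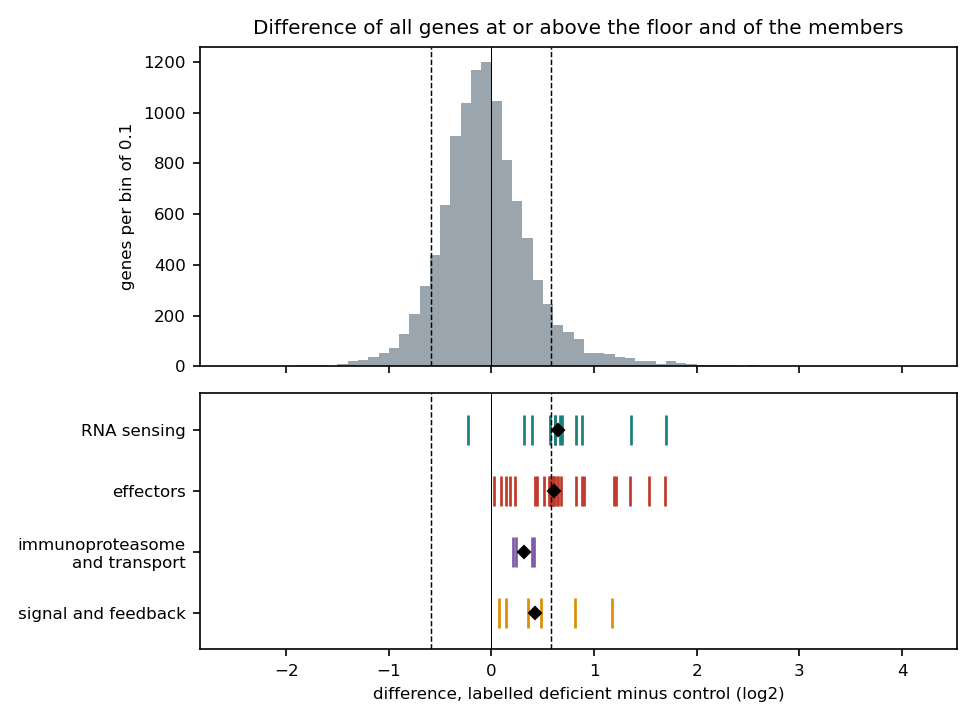
The upper panel counts all 10658 genes at or above the floor by difference (labelled deficient minus control, log2). The lower panel shows each measured member as a tick and each role's median as a diamond, from 0.65 in RNA sensing to 0.32 in immunoproteasome and peptide transport. Dashed lines mark 1.5-fold.

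Markers of cell types were set beside these values. The counts below can be compared with all genes that reached the floor, of which 7.54% were called higher and 8.81% lower. Under centring these shares were 11.5% and 4.51%. Macrophage markers were bright in both arrays, from 10.31 to 13.21 in the array labelled deficient and from 9.89 to 13.59 in control over 11 genes, with 1 at least 1.5-fold higher (Fcgr1, 0.78), and 2 under centring. All 4 measured markers of inflammatory monocytes were at least 1.5-fold higher, with a summed linear intensity of 4925 in the array labelled deficient and 1655 in control. Among neutrophil markers 10 of 12 were past 1.5-fold, with 14225 in the array labelled deficient and 5766 in control. Among fibroblast and stromal markers 10 of 12 were, with 17866 in the array labelled deficient and 8160 in control. RMA values have no zero and no detection call, so no marker can be called absent. The part of these cells in the interferon genes was not tested. Of 8 plasmacytoid dendritic cell markers, a cell type that makes much interferon, 4 reached the floor and 0 were called in either direction. Markers below the floor could not be called. Tcf4 (0.26) and Pacsin1 (0.022, below the floor in both) were highest and Ccr9 (-0.89, below the floor in both) and Cox6a2 (-0.54) lowest. Siglech, a defining surface marker, lay below the floor at 6.40 in the array labelled deficient and 6.75 in control (chosen after its values were seen). Conventional dendritic cell markers had 3 of 9 measured at the floor, with 2 higher and 1 lower. The lower one, Ccr7 (-0.63), was inside the line under centring, quantile normalization and loess. Lymphocyte markers had 1 of 9 at the floor, which was higher.

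Promoters of members with the highest and the lowest differences are shown because interferon-response elements can lie there. Printed are the 3 highest and 3 lowest members that the RefSeq promoter table (GRCm38.p6) held, and, added after values were seen, the neighbours Ifit3 and Ifit1, which each carry a pair of matches. Each sequence gives the 250 bases before the annotated start, 5′ to 3′ on the gene's strand. Capitals mark matches to the core repeat of the interferon-response element, which is GAAA, any 2 bases and GAAA again, or on the other strand TTTC, any 2 bases and TTTC. Positions were chr5:114922990-114923239 on the plus strand for Oasl1, chr11:83116570-83116819 on the plus strand for Slfn1 and chr12:26456453-26456702 on the minus strand for Rsad2. They were chr19:34583279-34583528 on the plus strand for Ifit3 and chr19:34640639-34640888 on the plus strand for Ifit1. They were chr3:89714772-89715021 on the plus strand for Adar, chr6:3399572-3399821 on the minus strand for Samd9l and chr6:57580742-57580991 on the plus strand for Herc6. The table held 3 promoters for Adar with the same number of matches (0), of which the one listed first is shown.
Oasl1: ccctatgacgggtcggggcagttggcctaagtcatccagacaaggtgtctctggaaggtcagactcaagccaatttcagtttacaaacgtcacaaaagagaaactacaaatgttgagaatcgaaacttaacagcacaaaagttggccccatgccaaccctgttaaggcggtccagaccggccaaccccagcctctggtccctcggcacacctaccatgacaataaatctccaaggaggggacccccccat
Slfn1: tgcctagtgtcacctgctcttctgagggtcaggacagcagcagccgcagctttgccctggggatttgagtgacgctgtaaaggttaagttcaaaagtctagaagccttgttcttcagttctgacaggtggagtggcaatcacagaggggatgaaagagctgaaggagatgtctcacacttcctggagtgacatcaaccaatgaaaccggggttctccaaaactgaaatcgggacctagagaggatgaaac
Rsad2: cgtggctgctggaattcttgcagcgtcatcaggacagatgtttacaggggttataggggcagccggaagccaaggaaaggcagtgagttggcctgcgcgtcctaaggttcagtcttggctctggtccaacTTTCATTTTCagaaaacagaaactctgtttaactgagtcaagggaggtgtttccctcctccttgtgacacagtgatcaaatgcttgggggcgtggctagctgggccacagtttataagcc
Ifit3: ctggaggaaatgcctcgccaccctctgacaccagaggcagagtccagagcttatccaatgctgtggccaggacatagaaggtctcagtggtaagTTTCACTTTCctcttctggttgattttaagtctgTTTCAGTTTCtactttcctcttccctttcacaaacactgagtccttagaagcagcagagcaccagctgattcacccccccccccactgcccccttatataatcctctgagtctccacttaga
Ifit1: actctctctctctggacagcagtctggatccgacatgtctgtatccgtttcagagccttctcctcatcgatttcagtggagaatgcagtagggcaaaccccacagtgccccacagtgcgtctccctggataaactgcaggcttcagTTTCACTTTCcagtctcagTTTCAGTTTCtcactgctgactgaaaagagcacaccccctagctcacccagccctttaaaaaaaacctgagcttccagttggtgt
Adar: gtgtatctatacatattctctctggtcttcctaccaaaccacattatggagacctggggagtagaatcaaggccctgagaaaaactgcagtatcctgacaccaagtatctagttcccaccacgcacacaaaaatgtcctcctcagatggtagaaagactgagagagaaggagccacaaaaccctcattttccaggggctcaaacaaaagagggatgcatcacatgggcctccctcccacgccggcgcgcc
Samd9l: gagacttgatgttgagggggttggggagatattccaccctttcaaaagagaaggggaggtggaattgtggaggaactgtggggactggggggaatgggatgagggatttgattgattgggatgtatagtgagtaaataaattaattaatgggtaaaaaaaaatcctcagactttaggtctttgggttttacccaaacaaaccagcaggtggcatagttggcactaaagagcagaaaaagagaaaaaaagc
Herc6: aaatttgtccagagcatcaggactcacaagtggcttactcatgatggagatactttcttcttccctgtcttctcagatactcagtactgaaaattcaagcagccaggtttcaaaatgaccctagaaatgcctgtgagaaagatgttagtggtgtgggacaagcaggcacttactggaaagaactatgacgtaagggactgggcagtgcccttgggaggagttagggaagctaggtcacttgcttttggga
Of the 3 genes with the highest differences shown, Rsad2 (1.35) held 1 match, while Oasl1 (1.70) and Slfn1 (1.69) held none (0) to these letters in the window. Ifit3 and Ifit1 carried the same pair of matched stretches, TTTCACTTTC and TTTCAGTTTC, with differences of 1.21 and 0.58. No match says only that these letters are not in this window.

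Promoters were found in the table for 38 of the 50 members, and 12 had none (Dhx58, Ifi27l2a, Mx1, Mx2, Oas2, Parp14, Parp9, Rtp4, Tap2, Tor3a, Usp18 and Zbp1). Searched on both strands over 250 bases before and 50 after the start, with overlapping matches allowed, 18 of the 46 member promoters (39.1%) held this repeat, against 3.44% of all 32851 promoters in the table. A longer form, with CT after the second GAAA, was in 10 of 46 member promoters (21.7%) and in 0.271% of all. Counted by gene, 16 of 38 members held the shorter motif. The motif did not sort the members by size of difference. Over the 14 measured members that held it the median was 0.62 (0.18 to 1.35), and over the 21 that did not it was 0.45 (-0.23 to 1.70), so the ranges overlapped. Elsewhere on the array 592 genes outside the set had a promoter with the motif, and their median was -0.16, close to the -0.15 of all genes. Among the 310 of these that reached the floor, 38 (12.3%) passed 1.5-fold upwards, where the share of all genes was 7.54%. The longer form was held by 46 genes outside the set, with a median of -0.036. Of the 23 of them that reached the floor, 7 passed 1.5-fold upwards.

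**Figure D3:**
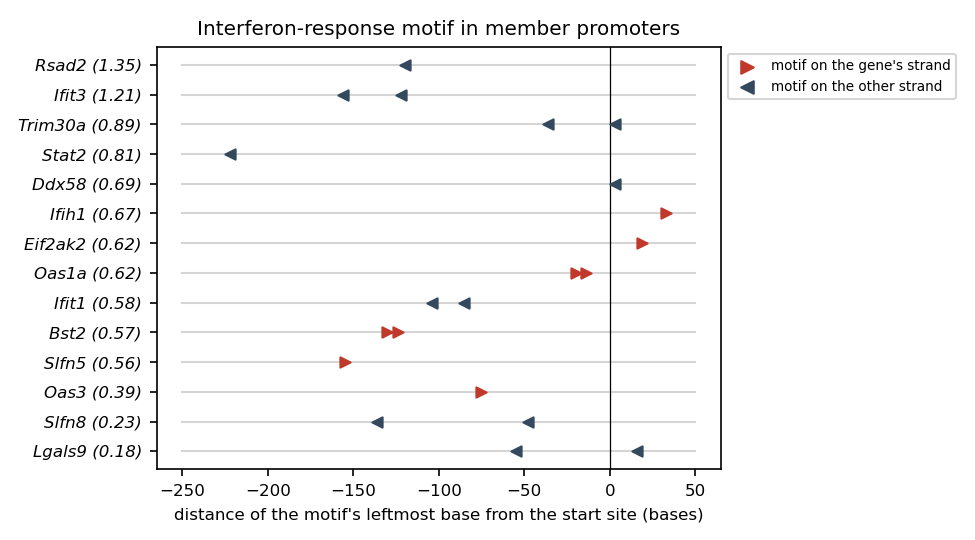
Distance of each motif match from the annotated start site (bases, leftmost base of the match on the gene's strand) in the 14 measured members that hold one, ordered by difference, which stands in brackets (log2). Arrowheads give the strand of the match. Slfn8 and Trim30a had several start sites in the table, each drawn on the same line, and matches lay on both sides of the start, as in Rsad2 (-120) and Ifih1 (33).

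Sensors of foreign RNA held the highest member, and 8 of the 12 measured were at least 1.5-fold higher (median difference 0.65). Oasl1, an oligoadenylate synthetase-like protein that restrains translation of Irf7 mRNA in mice, had a level of 9.90 in the array labelled deficient and 8.20 in control, 3.26-fold higher. Zbp1, which senses Z-form nucleic acid and can trigger necroptosis, had 9.90 and 8.54, 2.56-fold higher. These were the members of this role past 2-fold.

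Cytosolic helicases moved by smaller and similar amounts. Ddx58, which encodes RIG-I, a sensor of RNA with a free triphosphate end, had a level of 10.72 in the array labelled deficient and 10.02 in control (difference 0.69). Ifih1, which encodes the long double-stranded RNA sensor MDA5, had 9.65 and 8.98 (0.67). Dhx58, the related helicase LGP2, which lacks the signalling domains, had 9.94 and 9.37 (0.57) and stayed just inside the 1.5-fold line. The 3 helicases therefore lay between 0.57 and 0.69 in difference. Eif2ak2, the kinase PKR that stops translation when it binds double-stranded RNA, had 9.14 and 8.52 (0.62).

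Oligoadenylate synthetases make a second messenger that switches on the RNA-degrading enzyme RNase L. Oas2 had a level of 10.47 in the array labelled deficient and 9.59 in control (0.88), Oas1a 9.72 and 9.10 (0.62), and Oas3 9.91 and 9.52 (0.39). Oasl2 had 11.89 and 11.07 (0.82). All 4 were higher, with Oas3 alone inside 1.5-fold. Oas1a has close copies in the mouse, so its probes may share signal with them. Trim25, a ubiquitin ligase that helps activate RIG-I, had 10.56 and 10.24 (0.32). Adar, the enzyme that edits adenosine in double-stranded RNA and so limits sensing by MDA5, had 9.02 in the array labelled deficient and 9.24 in control. Its difference of -0.23 was the sole negative one of the set, and it stayed negative under centring, quantile normalization and loess. Adar has a constitutive promoter and an interferon-inducible one, and 1 value per gene does not separate the transcripts.

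Effectors ranged from 0.03 to 1.69, and 13 of the 25 measured were at least 1.5-fold higher (median 0.61). Slfn1, a Schlafen gene tied to growth arrest of T cells in mice, had a level of 8.61 in the array labelled deficient and 6.92 in control. The control value lay below the floor, so the 3.24-fold difference rests partly on the dim range of the array. Mx1, a dynamin-like GTPase that traps viral nucleoprotein in the nucleus, had 8.82 and 7.29 (2.89-fold higher), with the control value at the floor. Many inbred mouse strains carry a defective Mx1, and the strain of these mice is unknown here. Its neighbour Mx2, the cytoplasmic relative, had 7.12 and 6.30 (0.82), below the floor in both arrays.

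Rsad2, which encodes viperin, a radical enzyme that makes a chain-terminating nucleotide, had a level of 10.65 in the array labelled deficient and 9.30 in control, 2.55-fold higher. Cmpk2, the mitochondrial nucleotide kinase that supplies its substrate, lies next to it and had 9.42 and 8.81 (1.52-fold higher). Ifit proteins bind foreign RNA ends and block its translation. Ifit3 had 10.87 in the array labelled deficient and 9.66 in control (1.21), Ifit2 8.92 and 8.01 (0.90), and Ifit1 9.15 and 8.57 (0.58). The family thus ran from 2.31-fold for Ifit3 to 1.49-fold for Ifit1, which fell just short of the line. Ifit3 has a close copy in the mouse, Ifit3b, and its probes may share signal with it. Ifi27l2a, a small mitochondrial interferon-induced protein, had 10.28 and 9.09, 2.29-fold higher.

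Trim30a, a myeloid TRIM ligase that dampens Toll-like receptor signalling in mice, had a level of 12.04 in the array labelled deficient and 11.15 in control (0.89). A further 6 effectors lay between 0.60 and 0.68. They were Lgals3bp (0.68), a secreted glycoprotein that binds galectin-3, Ifi35 (0.65), the apoptosis factor Xaf1 (0.64), the histone chaperone Daxx (0.61), Cmpk2 (0.61) and Rtp4 (0.60), a chaperone of membrane receptors. Just below them were Bst2 (0.57), the tether that holds budding virus at the cell surface, Slfn5 (0.56) and Parp12 (0.51). Epsti1 (0.45) and Tor3a (0.43) followed. The smallest differences were those of Slfn8 (0.23), the galectin Lgals9 (0.18), Slfn2 (0.15), the nuclear body protein Sp100 (0.09) and Samd9l (0.03), a restriction factor of poxviruses. Samd9l had 9.33 in the array labelled deficient and 9.30 in control, so these arrays hardly separated it.

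Immunoproteasome and peptide transporter genes were higher by the least, with differences from 0.21 to 0.41 and none (0) of the 4 past 1.5-fold (median 0.32). Psmb8 and Psmb9 encode catalytic subunits that replace the constitutive Psmb5 and Psmb6 when interferon is sensed. Psmb8 had a level of 9.47 in the array labelled deficient and 9.23 in control (0.24), and Psmb9 had 9.55 and 9.16 (0.39). Tap1 and Tap2 form the pump that brings the peptides to MHC class I. Tap1 had 9.58 and 9.37 (0.21), and Tap2 had 8.99 and 8.58 (0.41). The constitutive subunits did not share this direction, with Psmb5 at -0.55 and Psmb7 at -0.56, while Psmb6 was 0.15 higher. Psmb10, the immune counterpart of Psmb7, had a difference of 0.28 (picked once its value was known).

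Loading partners of MHC class I went both ways. Of 11 measured, 0 were 1.5-fold apart in either direction, against 2 higher under centring, where the median of -0.11 turned positive. Tapbp, the tapasin that tethers MHC class I to the pump, was 0.54 higher and the proteasome activator Psme2 0.54 higher, and these were the 2 past the line under centring (0.69 each). Erap1, which trims peptides (-0.50), and the light chain B2m (-0.27) were lowest.

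Signal and feedback genes ranged from 0.07 to 1.18 (median 0.42), and 2 of the 6 measured were at least 1.5-fold higher. Usp18 removes the ubiquitin-like ISG15 from proteins and also blocks Jak1 at the receptor, which makes it the main brake on repeated interferon signalling. It had a level of 11.03 in the array labelled deficient and 9.85 in control, 2.26-fold higher. Stat2, the subunit of the interferon-activated factor that carries its transactivation domain, had 10.13 and 9.32, 1.76-fold higher. The remaining 4 were inside the line. Parp9 (0.48) and its ubiquitin ligase partner Dtx3l (0.15) form a complex that modifies histones at interferon targets, and Parp14 (0.36) is a mono-ADP-ribosyltransferase. Herc6, the ligase that attaches ISG15 in the mouse, had 9.41 in the array labelled deficient and 9.35 in control (0.07).

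Enzymes that load ISG15 were near level as well. Of 5 genes listed for that step, 0 were 1.5-fold apart and the median was 0.04. The activating enzyme Uba7 was 0.26 higher and Ube2e1 0.15 higher. Arih1 (-0.09) and the conjugating enzyme Ube2l6 (-0.08) were lowest, and both turned positive under centring. Removal (Usp18) thus had the one difference past 2-fold among the measured enzymes of ISG15 transfer, and ISG15 itself was not measured.

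Several members lie together in the genome, and neighbours differed in size. By RefSeq gene positions, members less than 200 kb apart formed 8 groups. The 4 genes of the MHC region, Psmb9, Tap1, Psmb8 and Tap2, spanned the narrowest range, 0.20 on the log2 scale. Slfn1, Slfn2, Slfn5 and Slfn8 spanned the widest, 1.55, from Slfn2 (0.15) to Slfn1 (1.69). Oasl1 and Oasl2 differed by 0.88, Rsad2 and Cmpk2 by 0.75, and Mx1 and Mx2 by 0.71. The Schlafen range was wider still outside the set, where Slfn4 had a difference of 1.34 (picked once its value was known) and Slfn3 had a difference of -1.06. Schlafen genes are close copies of each other, so their probes may share signal.

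**Figure D4:**
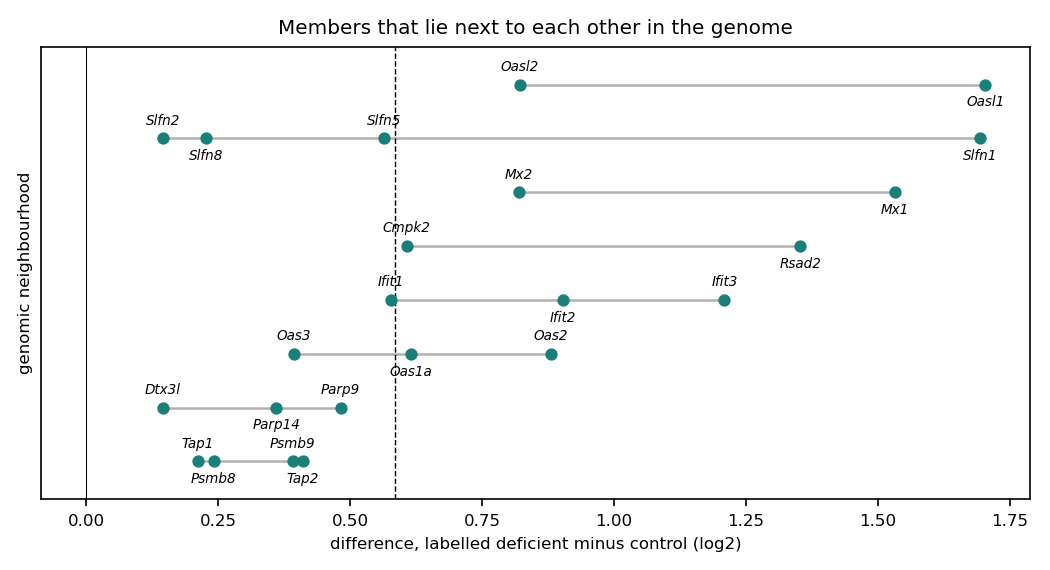
Difference (labelled deficient minus control, log2) of measured members that lie within 200 kb of another, 1 line per neighbourhood. The Slfn line is the longest (0.15 to 1.69) and the line of Tap1, Psmb8, Psmb9 and Tap2 the shortest (0.21 to 0.41). The dashed line marks 1.5-fold.

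Upstream of these genes, interferon ligands and receptors did not share the direction. Of 14 type I interferon genes measured, 3 reached the floor, 0 of the 14 were 1.5-fold higher or lower at the floor, and the median was -0.48. Ifnb1 had a level of 5.32 in the array labelled deficient and 5.39 in control, below the floor in both, and its difference of -0.08 turned positive under centring, quantile normalization and loess (chosen after its value was seen). Ifne (0.07) was highest, followed by Ifna16 (-0.02), which turned positive under all 3 scalings, and Ifna12 (-1.15) and Ifna13 (-0.89) were lowest, all below the floor. The median difference of all genes below the floor was -0.24, and the ligand median shrank to -0.16 when a loess curve on level was subtracted. Interferon genes are close copies of each other, so their probes may share signal.

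Receptors and the JAK-STAT proteins were near level. Of 15 measured, 0 were 1.5-fold apart, against 1 higher under centring, where the median of -0.04 turned positive. Irf9, the DNA-binding partner of Stat2, was highest at 0.50, with a level of 10.38 in the array labelled deficient and 9.88 in control (0.66 and past the line under centring), followed by the cytokine signalling inhibitor Socs3 (0.33). The lambda interferon receptor Ifnlr1 (-0.43), below the floor in both, and Pias1 (-0.29), a SUMO ligase that restrains JAK-STAT signalling, were lowest. The receptor chains Ifnar1 (-0.26) and Ifnar2 (-0.03, positive under centring) were not higher (both chosen after their values were seen).

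Adaptors, kinases and factors that link sensors to interferon genes had a median of 0.02. Of 19 measured, 2 were at least 1.5-fold higher and 1 lower. The higher ones were Irf7 (1.78), the factor that amplifies interferon-alpha genes and is itself interferon-induced, and Ikbke (1.06), a kinase that phosphorylates it. The endosomal RNA sensor Tlr3 was the lower one (-0.71, but -0.55 and inside the line under centring), followed by Tlr9 (-0.50). The adaptor Mavs (0.22) and the kinase Tbk1 (0.21), which Ddx58 and Ifih1 signal through, were inside the line (both chosen after their values were seen).

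Other interferon-stimulated genes outside the set were listed with earlier results of these data known. As a list they moved in the same direction as the members, with a median of 0.42 over 28 measured genes. Of these, 12 were at least 1.5-fold higher (13 under centring) and 1 lower. The shares over all genes at or above the floor were 7.54% and 8.81%. Ms4a4c, a membrane protein of myeloid cells, was highest (1.83), with a level of 10.11 in the array labelled deficient and 8.28 in control, followed by Ifi205 (1.54), a DNA-binding protein with close copies. Slfn3 (-1.06) and Slfn9 (-0.51) were lowest. Genes that respond best to interferon-gamma had 2 of 7 measured at least 1.5-fold higher (3 under quantile normalization) and 1 lower. Of the 7, 4 reached the floor, and the shares over all genes there were 7.54% and 8.81%. The GTPases Iigp1 (2.22) and Irgm1 (0.95) were highest and Cxcl9 (-0.76) and Ido1 (-0.59) lowest. Of 14 measured early inflammatory genes driven by NF-kB, 1 was at least 1.5-fold higher and 2 were lower, with a median of 0.13, where 7.54% of all genes were higher and 8.81% lower. This count depended on the scaling, with 3 higher and 0 lower under centring, and 1 higher and 1 lower under quantile normalization and under loess. Il6 (0.81, below the floor in both) and Cxcl2 (0.75) were highest and Tnf (-0.68) and Nfkbia (-0.61) lowest. Both were inside the line under centring (Tnf -0.53, Nfkbia -0.45), and Nfkbia also under quantile normalization (-0.58) and loess (-0.55).

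**Figure D5:**
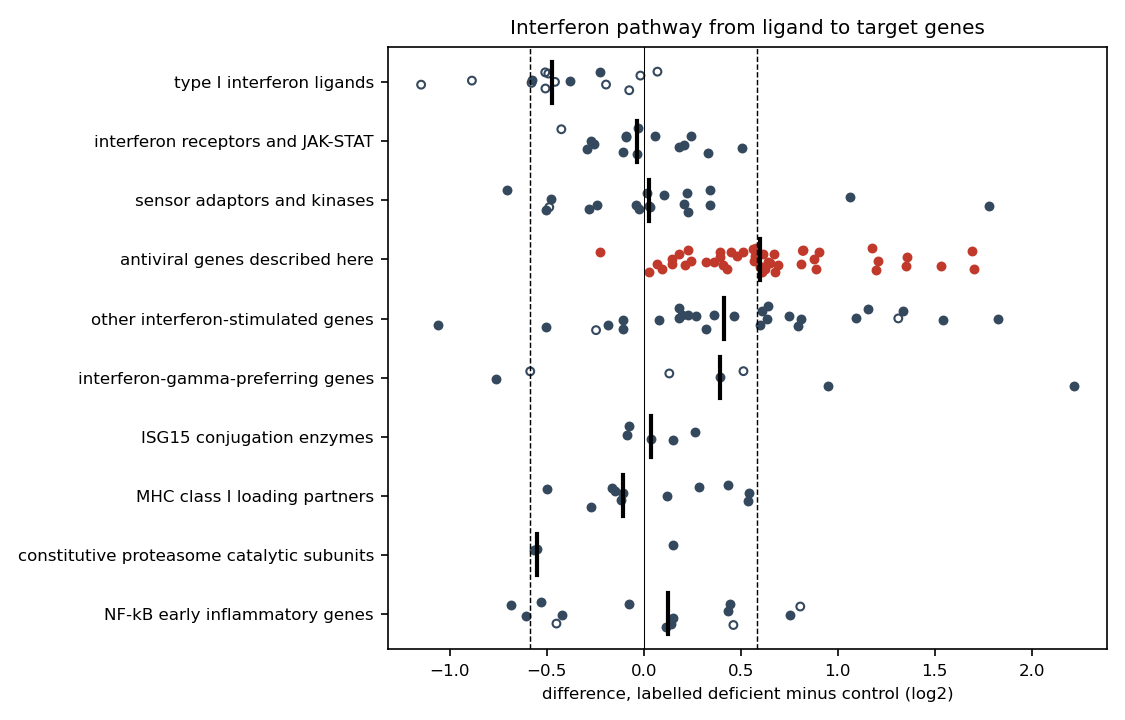
Difference (labelled deficient minus control, log2) of each measured gene by step of the interferon pathway, with the NF-kB list last. Open points lie below the floor in both arrays, thick bars are medians over all measured genes, and dashed lines mark 1.5-fold. The antiviral genes described here (red, median 0.60) and other interferon-stimulated genes (0.42) lie to the right, while ligands (-0.48) lie to the left.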

How the data were processed

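In all, 2 arrays were used, and each column of the deposited table is 1 sample. The deposited log2 values came from RMA, per the submitters' processing notes. The sources used here do not give its version, its settings, any row filter or whether both columns came from 1 run. The log2 scale was inferred from values between 2.12 and 14.11. Of 25917 rows, GEO's platform annotation gave 1 symbol to 21632, several to 1560 and none to 2725. For each gene the row with the highest mean was kept. A gene was counted when the difference reached 1.5-fold and the higher value reached 7.28. Over all genes at or above that floor, 7.54% were counted higher and 8.81% lower, the shares to set beside each list's count. RMA carries no read depth, so the number of arrays limits the precision.

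Members and lists were chosen with earlier results of these data known. Genes named outside the set were the 2 highest and 2 lowest of each list, except where marked. Promoters came from a RefSeq table (GRCm38.p6). Counting was tested on simulated data. Python 3.11.15, pandas 2.3.3 and statsmodels 0.14.6 were used. Alternatives were other floors and folds, centring, quantile normalization, loess and other row choices.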

Additional observations from a re-analysis of the deposited data

How the results depend on the processing

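No member changed the sign of its difference under centring, quantile normalization or loess, and 46 of 47 were higher in each. The floors and row choices could not change a sign, because a floor does not alter a difference and each member had a single row. The count of members at least 1.5-fold higher was 23 and lay between 19 (floor at the 75th percentile) and 30 (centring). It was 27 under quantile normalization and under loess, with 0 lower in each of these settings. The 75th-percentile floor kept 41 members, and of the 5445 genes it kept 8.10% were higher and 8.83% lower. The count was 8 at 2-fold and 35 at a line of 0.32 on the log2 scale, beside 2.96% and 16.2% of all genes higher. Centring, which adds 0.15 to each difference, moved the members' median to 0.75, RNA sensing to 0.80, effectors to 0.76, immunoproteasome and peptide transport to 0.47 and signal and feedback to 0.57. It moved the medians of ligands to -0.32, receptors and JAK-STAT to 0.12, sensor adaptors to 0.18, ISG15 enzymes to 0.19, MHC class I partners to 0.046, constitutive proteasome subunits to -0.40, other interferon-stimulated genes to 0.57, interferon-gamma genes to 0.55 and NF-kB genes to 0.28. The ligand median was -0.15 under quantile normalization, -0.16 under loess and -0.30 with the floor on the mean, where the NF-kB median was 0.019. With the floor at the 75th percentile, fewer genes left medians of 0.16 (sensor adaptors), -0.081 (ISG15 enzymes), 0.12 (MHC class I partners), 0.53 (other interferon-stimulated genes), 0.67 (interferon-gamma genes) and -0.42 (NF-kB genes). The interferon-gamma median was 0.29 with the mean of all rows and 0.19 with the lowest row. The longer motif and the gene's strand alone were each found in 8 member genes, against 16. Where no reason is given, the cause was not tested. The share of 1.5-fold genes that were higher changed with scaling too, from 7.54% of genes higher and 8.81% lower to 11.5% and 4.51% after centring. No paired analysis was possible because each group had 1 array, and no replicate could be left out.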
